A study of Rattus with 9 samples.

Results

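The genes described here are 9 genes of extracellular proteolysis: the matrix metalloproteinases Mmp2, Mmp3, Mmp7, Mmp14 and Mmp19, the tissue inhibitors of metalloproteinases Timp1, Timp2 and Timp3, and the secreted metalloproteinase Adamts1. They were chosen by symbol, with earlier results of these data known. All 9 were found once each among the 23836 symbols and 23999 features of the deposited feature lists. Single-cell RNA sequencing (scRNA-seq, 10x Genomics 3′ chemistry with unique molecular identifiers, UMIs) was performed on rat bile duct, and the question of the study was what raised hepatic arterial flow does to the bile duct after liver transplantation (LT). The sham group held 3 samples, each a single library of bile duct. The ctrl group was LT with ischemic injury, with 1 sample on each of days 1, 3 and 7 post-LT and 3 libraries per sample. The treat group was the same LT model with the splenic and gastroduodenal arteries tied off to raise arterial flow, with 1 sample on each of days 1, 3 and 7, of which 3, 2 and 3 libraries were analysed here. The 6 LT samples therefore shared graft, ischemia and surgery, and the sham procedure is not described in the labels. The labels give the organism as rat with no strain, sex or age, and the paper describing the ctrl and sham samples worked with Sprague-Dawley rats of both sexes, a few weeks old. All tissue was digested with collagenases and dispase, treated to lyse red cells and depleted of dead cells, so every value refers to the cells that came through these steps.

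Matrix metalloproteinases are zinc enzymes that cut collagens, proteoglycans and other matrix proteins, and most are secreted as inactive proenzymes. TIMP proteins bind the active site of these enzymes, and the balance between enzyme and inhibitor sets how fast matrix is turned over. In the bile duct wall, fibroblasts, vascular cells and the biliary epithelium share this work, and scarring around the duct is a known complication after LT. Levels of mRNA say nothing about how much of an enzyme is active, since activation and inhibition take place on the protein.

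After filtering, 139630 cells remained, 2281 to 31743 per sample, with 9315831 UMIs (sham replicate 1) to 192094284 UMIs (treat day 1) per sample. The 42 clusters gave 14 named types, of which 10 had enough cells in enough samples to compare levels: fibroblast-like, vascular smooth muscle (VSMC)-like, endothelial (EC)-like, lymphatic endothelial (LEC)-like, biliary epithelial (BEC)-like, macrophage-like, dendritic (DC)-like, neutrophil-like, B-like and NK&T-like. Types were named from their markers, and the 15 clusters left without a name held 18.2% of cells. Fibroblast-like cells made up 3.7%, 35.3% and 47.6% of cells in sham replicates 1, 2 and 3, against 2.3%, 5.2% and 3.1% on ctrl days 1, 3 and 7 and 24.7%, 5.8% and 3.5% on treat days 1, 3 and 7. The yield of this type therefore differed widely within the sham group. The ctrl day 3 sample kept only 8 VSMC-like cells and was left out of every VSMC-like fit, which then used 8 samples. A pair of its libraries kept 425 and 320 cells because 2479 and 3966 barcodes exceeded the limit on hemoglobin reads.

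Mmp2 (ENSRNOG00000016695), which encodes gelatinase A, was a fibroblast gene in these data. Of its 143846 UMIs in cells, 97.7% came from fibroblast-like cells, which were 12.7% of all cells. Its level in fibroblast-like cells was 809 CPM at the median of 9 samples, with a lowest value of 342 and a highest of 1266, where CPM is the UMIs of the gene as a share of all UMIs of the type, on the usual depth-scaled CPM scale. VSMC-like cells came next with a median of 32.9 CPM, and the difference was 5.13 on the log2(CPM + 1) scale (SD 2.12, higher in 8 of 8 samples). Mmp2 was then followed by EC-like and LEC-like cells, with means of 3.62 and 3.33 on the log2(CPM + 1) scale. Free RNA, measured in barcodes with 100 UMIs or fewer, could account for a median of 100% of the Mmp2 UMIs of BEC-like cells and 94.4% of those of macrophage-like cells, so neither level is read as expression. In fibroblast-like cells its share was at most 0.8%.

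Mmp14 (ENSRNOG00000010947), a membrane-bound collagenase that also activates the Mmp2 proenzyme, was spread more widely. Fibroblast-like cells held 59.1% of its UMIs, BEC-like cells 20.7%, macrophage-like cells 4.0% and EC-like cells 3.0%. Its level in fibroblast-like cells was 21.8, 60.8 and 138 CPM at the lowest, median and highest sample. LEC-like cells were 1.02 lower on the log2(CPM + 1) scale (SD 0.64, 7 of 7 samples), followed by VSMC-like, BEC-like and EC-like cells with means of 4.71, 4.64 and 4.14. EC-like cells were 1.78 above macrophage-like cells in 9 of 9 samples.

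Mmp7 (ENSRNOG00000010507), or matrilysin, a small secreted protease made by glandular epithelia, was highest in the epithelium. BEC-like cells held 90.4% of its 315850 UMIs, and their level ran from 725 to 2401 CPM with a median of 1414. The next type, B-like cells, was 6.21 lower on the log2(CPM + 1) scale (SD 1.15, 8 of 8 samples), and fibroblast-like cells came last of the 10 types with a mean of 2.56. Free RNA could account for a median of 36.5% of the Mmp7 UMIs of B-like cells and 100% of those of fibroblast-like cells, against 0.2% to 1.4% in BEC-like cells. Mmp7 was thus an epithelial and not a stromal gene in these samples.

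Mmp19 (ENSRNOG00000006778), a basement membrane protease, was detected sparsely, with 1802 UMIs in 1679 cells, of which fibroblast-like cells held 77.4% and macrophage-like cells 7.7%. Its fibroblast-like level lay between 5.59 and 10.8 CPM, with a median of 7, and VSMC-like cells were 0.84 lower on the log2(CPM + 1) scale (SD 1.27, lower in 6 of 8 samples, adjusted p = 0.29, exact paired permutation test). Mmp3 (ENSRNOG00000032626), or stromelysin 1, gave 522 UMIs in 86 cells. One library of the ctrl day 7 sample supplied 331 of these UMIs from 17 VSMC-like cells, 155 of them from 1 cell, and 81 from 11 fibroblast-like cells. A further 33 UMIs came from 2 fibroblast-like cells of 1 library of the treat day 1 sample. In EC-like cells Mmp3 gave 0 UMIs in each sham sample, 6, 10 and 13 on ctrl days 1, 3 and 7, and 1, 2 and 6 on treat days 1, 3 and 7. Most Mmp3 UMIs thus came from a few cells of 1 library.

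Timp1 (ENSRNOG00000010208), an inducible inhibitor of most secreted matrix metalloproteinases, was found at high levels across the mesenchymal, endothelial and epithelial types. Fibroblast-like cells held 76.4% of its UMIs and BEC-like cells 10.3%. Its fibroblast-like level ran from 879 to 20851 CPM with a median of 3057. VSMC-like cells were 1.19 lower on the log2(CPM + 1) scale (SD 0.82, lower in 7 of 8 samples), BEC-like cells a further 1.18 lower (8 of 8 samples), and EC-like cells a further 0.32 lower (9 of 9 samples). LEC-like, DC-like and macrophage-like cells followed with means of 8.75, 8.06 and 7.72, and neutrophil-like cells were 2.56 below macrophage-like cells in 7 of 7 samples. Free RNA could account for a median of 86.6% of the neutrophil-like UMIs of Timp1, and for at most 1.6% of those of fibroblast-like cells.

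Timp2 (ENSRNOG00000003148), the inhibitor that also takes part in activating the Mmp2 proenzyme on the cell surface, was found in stromal, epithelial and myeloid types. Fibroblast-like cells held 41.8% of its UMIs, BEC-like cells 26.3%, macrophage-like cells 11.5% and neutrophil-like cells 2.4%. Its level in fibroblast-like cells was 346, 921 and 1908 CPM at the lowest, median and highest sample, and 0.98 above BEC-like cells on the log2(CPM + 1) scale (SD 0.89, 8 of 9 samples). LEC-like, macrophage-like, neutrophil-like and VSMC-like cells lay close together at means of 8.65, 8.39, 8.30 and 8.17, and VSMC-like cells were 1.82 above EC-like cells in 8 of 8 samples.

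Timp3 (ENSRNOG00000004303), the inhibitor that binds to the matrix itself, was highest in LEC-like, VSMC-like and EC-like cells. LEC-like cells led with 97.3, 212 and 431 CPM at the lowest, median and highest sample, followed by VSMC-like and EC-like cells with means of 6.93 and 6.73 on the log2(CPM + 1) scale. LEC-like cells were 0.42 above VSMC-like cells (SD 0.58, 6 of 7 samples, p = 0.0469, adjusted p = 0.181, exact paired permutation test). VSMC-like cells were 0.15 above EC-like cells, less than the SD of 0.60 (4 of 8 samples, adjusted p = 0.861, exact). EC-like cells were 1.20 above fibroblast-like cells, and those 3.31 above BEC-like cells, each in 9 of 9 samples. Fibroblast-like cells held 51.8% of Timp3 UMIs, against 23.4% in EC-like and 6.3% in VSMC-like cells.

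Adamts1 (ENSRNOG00000001607), a secreted protease that cuts the proteoglycans aggrecan and versican, was highest in VSMC-like cells, with 165, 293 and 381 CPM at the lowest, median and highest sample. EC-like cells were 0.57 lower on the log2(CPM + 1) scale (SD 0.37, 8 of 8 samples), and fibroblast-like cells were 0.43 below EC-like cells, less than the SD of 0.57 (6 of 9 samples, adjusted p = 0.244, exact paired permutation test). LEC-like and BEC-like cells followed with means of 5.38 and 4.27. Adamts1 UMIs came to 61.6% from fibroblast-like, 14.3% from EC-like, 10.4% from BEC-like and 6.4% from VSMC-like cells. Across the 9 members, none of the 81 neighbouring pairs in these orders passed after adjustment, and the smallest adjusted p was 0.0575. A two-sided exact paired permutation test cannot go below p = 0.00391 with 9 samples, 0.00781 with 8 or 0.0156 with 7.

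**Figure D1:**
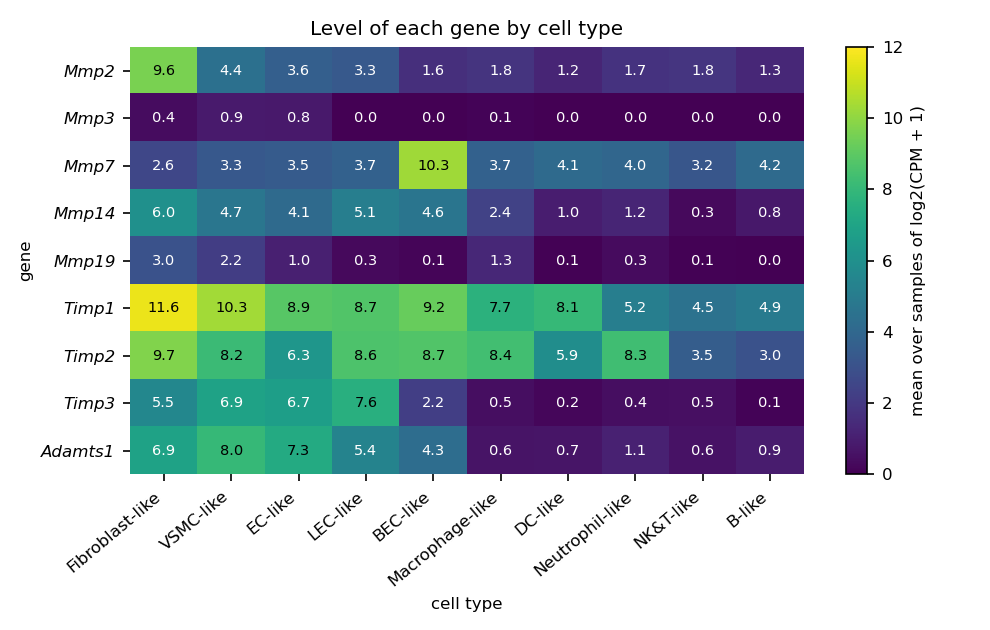
Mean level of each of the 9 genes (rows) in each of the 10 named cell types (columns) on the log2(CPM + 1) scale, averaged over the samples in which the type was analysed. Mmp2 stood out in fibroblast-like cells at 9.56, Mmp7 in BEC-like cells at 10.31, and Timp3 was higher in LEC-like, VSMC-like and EC-like cells (7.58, 6.93 and 6.73) than in fibroblast-like cells (5.53).

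Fibroblast-like cells were compared first, since they held most UMIs of Mmp2, Mmp14, Mmp19, Timp1, Timp3 and Adamts1. Sums per sample were tested with edgeR's quasi-likelihood test and Benjamini-Hochberg adjustment over all genes, in a model with a term for sham, each day and the treat arm. After LT, Timp1 rose and Timp3 fell, and the proteases did not pass the test. Between days 1 and 7, Mmp2, Timp2 and Timp3 rose and Timp1 fell. No member passed between treat and ctrl.

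Timp1 in fibroblast-like cells was 879, 1719 and 885 CPM in sham replicates 1, 2 and 3. It was 20851, 5916 and 3435 CPM on ctrl days 1, 3 and 7. On treat days 1, 3 and 7 it was 7210, 3057 and 2826 CPM. All 6 LT samples lay above all 3 sham samples, and day 1 was the highest day in both arms. The log2 fold change of LT over sham was 2.49 (SE 0.37, 5.63-fold, adjusted p = 0.005, edgeR), and the call held with each of the 9 samples left out in turn (2.28 to 2.92) but was lost with no day term in the model (adjusted p = 0.0916). The decline from day 1 to day 7 was −2.22 on the log2 scale (SE 0.49, adjusted p = 0.0112, edgeR), and it was lost without ctrl day 1 or ctrl day 7 (−1.70 to −1.60, lowest adjusted p = 0.0909).

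Timp3 in fibroblast-like cells was 134, 57.6 and 108 CPM in sham replicates 1, 2 and 3, then 5.98, 43.5 and 37.1 CPM on ctrl days 1, 3 and 7 and 28.6, 43.9 and 71.7 CPM on treat days 1, 3 and 7. Treat day 7 exceeded sham replicate 2, so the groups overlapped. The fold change of LT over sham was −1.33 on the log2 scale (SE 0.30, adjusted p = 0.0232, edgeR), and the call was lost without sham replicate 3, ctrl day 7 or treat day 7 (−1.33 to −1.21, lowest adjusted p = 0.0603) and with no day term (adjusted p = 0.239). Timp3 then rose from day 1 to day 7 by 1.60 on the log2 scale (SE 0.45, adjusted p = 0.0281, edgeR), a call lost without ctrl day 1, ctrl day 7 or treat day 7 (1.03 to 1.68, lowest adjusted p = 0.132). Over fibroblast-like cells as a whole, Timp1 and Timp3, which inhibit overlapping sets of enzymes, thus moved in opposite directions in both comparisons. A fall of Timp3 after LT was not seen within the cluster that sham and later LT samples shared, described below.

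Mmp2 in fibroblast-like cells was 907, 629 and 809 CPM in the sham samples, 342, 773 and 941 CPM on ctrl days 1, 3 and 7, and 676, 817 and 1266 CPM on treat days 1, 3 and 7. In both arms day 1 was lowest and day 7 highest, and both day 7 samples lay above all sham samples. The rise from day 1 to day 7 was 0.95 on the log2 scale (SE 0.24, adjusted p = 0.0208, edgeR), while LT against sham was 0.19 (SE 0.17, adjusted p = 0.471). The levels themselves, which lack the TMM scaling of the fit, gave −0.05 for LT minus sham in mean log2(CPM + 1). The rise lost its call without ctrl day 1, ctrl day 7, treat day 1 or treat day 7 (0.74 to 1.19, lowest adjusted p = 0.0507).

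Timp2 in fibroblast-like cells was 1908, 858 and 843 CPM in the sham samples, 346, 921 and 999 CPM on ctrl days 1, 3 and 7, and 430, 960 and 1162 CPM on treat days 1, 3 and 7. As for Mmp2, day 1 was the lowest day of each arm. The rise from day 1 to day 7 was 1.25 on the log2 scale (SE 0.37, adjusted p = 0.0338, edgeR), and the call was lost without ctrl day 1, ctrl day 7, treat day 1 or treat day 7 (1.21 to 1.31, lowest adjusted p = 0.14). Mmp14 had 51.1, 53.6 and 69.3 CPM in sham, 21.8, 108 and 138 CPM on ctrl days 1, 3 and 7, and 60.8, 60.5 and 78.8 CPM on treat days 1, 3 and 7. Its day 7 against day 1 fold change of 1.16 on the log2 scale did not pass (SE 0.45, adjusted p = 0.0864, edgeR). Adamts1 was 78.5 to 190 CPM and Mmp19 5.59 to 10.8 CPM over the 9 samples, with no call in any comparison.

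Over the 8 members tested in fibroblast-like cells, 1 was called higher and 1 lower after LT, where 7.64% and 7.99% of all 12074 genes were. Between days 1 and 7, 3 members were called higher and 1 lower, where 14.4% and 14.8% of all genes were. Between treat and ctrl edgeR called 0 members, where 0.00828% of all genes were called higher and 0.00828% lower, and DESeq2 called 0, where it called 0.861% of all genes. An unadjusted edgeR p under 0.05 was found for 5 members and for 11.8% of all genes. Those 5 were Mmp2 (0.47 on the log2 scale), Mmp7 (0.77), Timp1 (−0.94), Timp3 (1.00) and Adamts1 (0.50), with adjusted p from 0.355 to 0.415. Free RNA could account for a median of 100% of the Mmp7 UMIs of fibroblast-like cells. Mmp7 is counted among the 8 members tested, but its value here is not read as expression.

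**Figure D2:**
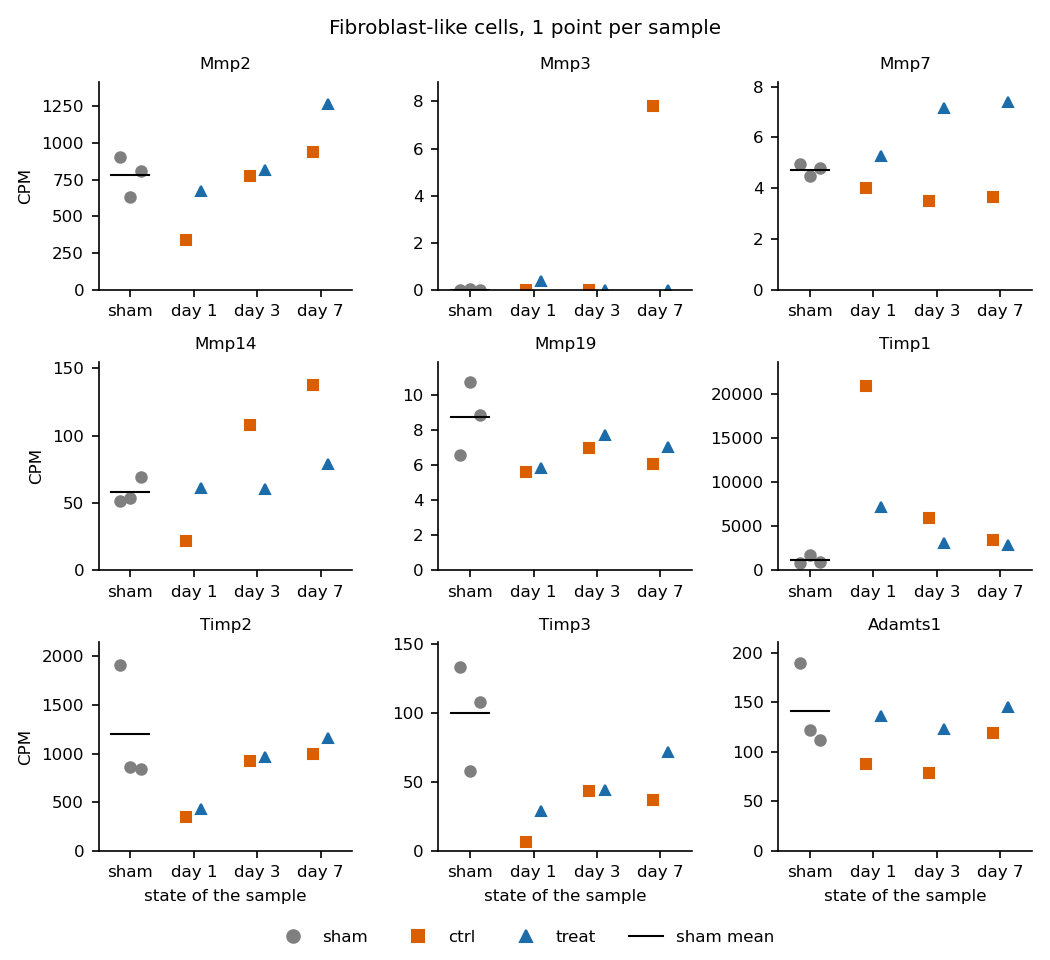
Level of each of the 9 genes in fibroblast-like cells, in CPM, with 1 point per sample for the 3 sham samples and for days 1, 3 and 7 of the ctrl and treat groups. Timp1 was above the sham range of 879 to 1719 CPM in all 6 LT samples, while Mmp2 and Timp2 were lowest on day 1 of each arm.

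The cluster make-up of fibroblast-like cells differed between the samples. A cluster led by Ogn and Tac3 held 77, 1974 and 3955 cells of the sham samples and at most 38 cells of any LT sample. A cluster led by Ptx3 and Mgp held 294 of the 298 fibroblast-like cells of ctrl day 1 and 5408 of the 5575 of treat day 1. Timp1 was itself among the leading genes of the Ptx3 and Mgp cluster. A cluster led by Cthrc1 and Mfap5 held 8, 1256 and 1285 cells of sham replicates 1, 2 and 3, 4, 352 and 981 of ctrl days 1, 3 and 7, and 160, 824 and 859 of treat days 1, 3 and 7, so sham and later LT samples shared it. Within the Cthrc1 and Mfap5 cluster, Timp1 was 2196 and 1259 CPM in sham replicates 2 and 3 and 2876 to 5481 CPM in 5 LT samples, without overlap. Timp3 within the same cluster was 25.3 and 51.8 CPM in those sham samples and 36.7 to 71.3 CPM in the LT samples. The ranges overlapped, and no fall after LT was seen there. The summed level of 9 fibroblast markers ran from 52641 to 63303 CPM in the sham samples and from 10162 CPM, on ctrl day 1, to 58473 CPM after LT. The part of these shifts in the results for Timp1, Timp2, Timp3 and Mmp2 was not tested.

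VSMC-like cells showed higher Mmp14 and Timp1 and lower Timp3 after LT. They formed a single cluster whose leading genes included Des and Actg2 as well as Rgs5 and Cox4i2. Muscle cells of vessels and of other parts of the duct wall were not separated within it. Timp1 was 600, 936 and 968 CPM in sham, 3577 and 1804 CPM on ctrl days 1 and 7, and 2229, 1000 and 1013 CPM on treat days 1, 3 and 7. Every LT sample lay above every sham sample, by a narrow margin on treat days 3 and 7. The log2 fold change of LT over sham was 1.10 (SE 0.20, 2.15-fold, adjusted p = 0.00461, edgeR) and was called with each of the 8 samples left out (0.93 to 1.21), but was lost with no day term or with libraries as samples (adjusted p up to 0.111). From day 1 to day 7, Timp1 fell by 1.07 on the log2 scale (SE 0.26, adjusted p = 0.028, edgeR), a call lost without sham replicate 2, ctrl day 1, ctrl day 7, treat day 1 or treat day 7 (−1.13 to −0.99, lowest adjusted p = 0.0879) and at the stricter doublet limit (adjusted p = 0.092).

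Mmp14 in VSMC-like cells was 8.76, 9.59 and 16.8 CPM in sham, 24.5 and 104 CPM on ctrl days 1 and 7, and 39.1, 29.7 and 34.5 CPM on treat days 1, 3 and 7. The groups did not overlap, but the sham values rest on 4, 3 and 4 UMIs. The log2 fold change of LT over sham was 1.97 (SE 0.53, 3.92-fold, adjusted p = 0.0414, edgeR), lost without any one sham sample, ctrl day 7 or treat day 3 (1.35 to 2.23, lowest adjusted p = 0.0511). This Mmp14 call held in 5 of 9 other settings and was lost without TMM scaling, with DESeq2, with no day term and with libraries as samples (adjusted p up to 0.0912). Timp3 was 177, 166 and 194 CPM in sham, 38.7 and 105 CPM on ctrl days 1 and 7, and 104, 129 and 144 CPM on treat days 1, 3 and 7. All LT values lay below the sham values, with a log2 fold change of −0.91 (SE 0.26, adjusted p = 0.0485, edgeR), lost without any one sham sample, ctrl day 1, ctrl day 7 or treat day 7 (−1.16 to −0.69, lowest adjusted p = 0.0586). This Timp3 call was kept in 4 of 9 other settings and lost with the stricter doublet limit, the mitochondrial limit of 10%, free RNA subtracted, no day term or libraries as samples (adjusted p up to 0.16).

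Mmp2 in VSMC-like cells was 0, 22.4 and 63.1 CPM in sham, 4.6 and 122 CPM on ctrl days 1 and 7, and 14.4, 43.4 and 63.6 CPM on treat days 1, 3 and 7. Day 7 was above day 1 in both arms, by 3.51 on the log2 scale (SE 0.78, adjusted p = 0.0195, edgeR), a call lost without sham replicate 2, ctrl day 1 or ctrl day 7 (at the least 2.14, lowest adjusted p = 0.0644) and with DESeq2 (adjusted p = 0.0889). The 9 fibroblast markers also varied in these cells, with the lowest sum in sham replicate 1 (386 CPM) and the highest on ctrl day 7 (8764 CPM), and their part in the Mmp2 result was not tested. Mmp3 was called higher on day 7 than day 1 and lower in treat than ctrl, and both calls rest on the 17 cells with 331 UMIs in 1 library of ctrl day 7. The only other Mmp3 UMI of VSMC-like cells was on ctrl day 1. The day 7 call was lost without ctrl day 1 (log2 fold change 0.00, adjusted p = 1) and the treat call without sham replicate 2 or treat day 7 (−9.17 to −2.43, lowest adjusted p = 0.09). Both Mmp3 calls were also lost with DESeq2 and at the stricter doublet limit.

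Of the 8 members tested in VSMC-like cells, 2 were called higher and 1 lower after LT, where 2.95% and 3.84% of all 8766 genes were. On day 7 against day 1 it was 2 higher and 1 lower, against 3.84% and 0.958% of all genes. Between treat and ctrl 0 were called higher and 1 lower, against 0% and 0.0684% of all genes. Mmp3 was that 1 lower member and 1 of the 2 higher on day 7. Its UMIs came almost only from 1 library of ctrl day 7, with 331 from 17 cells. The counts that include Mmp3 are therefore not read as a result about the members. The 15 genes of the dissociation response, immediate early and heat shock genes known to be induced by tissue digestion, summed to 26476 to 29605 CPM in sham and 12900 to 19908 CPM after LT in VSMC-like cells. The 10 VSMC markers summed to 30225 to 65085 CPM in sham and 10142 to 37555 CPM after LT in these cells, ctrl day 3 included, and the 9 fibroblast markers to 386 to 6371 CPM and 649 to 8764 CPM. The part of any of these in the Mmp14, Timp1, Timp3 and other calls was not tested.

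EC-like cells, the lining of blood vessels, had higher Mmp14 and lower Adamts1 after LT. Mmp14 was 6.87, 9.96 and 12.3 CPM in sham, 39.3, 53 and 22.8 CPM on ctrl days 1, 3 and 7, and 19.1, 13.2 and 8.59 CPM on treat days 1, 3 and 7. Treat day 7 fell within the sham range, and the ctrl samples were the highest. The log2 fold change of LT over sham was 1.20 (SE 0.24, 2.3-fold, adjusted p = 0.0353, edgeR), lost without sham replicate 2 or 3, any one ctrl day, treat day 1 or treat day 7 (1.14 to 1.44, lowest adjusted p = 0.0768). It was also lost without TMM scaling, with no day term and with libraries as samples (adjusted p up to 0.141). In the treat arm Mmp14 was lower than in ctrl on each of the 3 days, with a log2 fold change of −1.45 (SE 0.23, adjusted p = 0.0983, edgeR), which did not pass.

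Adamts1 in EC-like cells was 291, 244 and 310 CPM in sham, 95.5, 74.5 and 105 CPM on ctrl days 1, 3 and 7, and 235, 142 and 137 CPM on treat days 1, 3 and 7. All LT samples lay below the sham samples, treat day 1 only just. The log2 fold change was −1.10 (SE 0.17, adjusted p = 0.0175, edgeR), lost without sham replicate 2 or 3, ctrl day 1 or treat day 7 (−1.17 to −0.98, lowest adjusted p = 0.0533). The dissociation response genes, which do not include Adamts1, moved the same way in EC-like cells, at 17689 to 21166 CPM in sham and 4926 to 13052 CPM after LT. The 10 EC markers also summed to less after LT, 4842 to 6227 CPM against 7579 to 12403 CPM. Neutrophil markers in EC-like cells summed to 22.9 to 36.3 CPM in sham and 62.6 to 827 CPM after LT. The part of any of these in the Adamts1 and Mmp14 results was not tested.

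Timp3 in EC-like cells was 167, 106 and 117 CPM in sham, 40.2, 81.3 and 128 CPM on ctrl days 1, 3 and 7, and 48.4, 192 and 193 CPM on treat days 1, 3 and 7. Day 1 was the lowest in each arm, and the later treat samples exceeded all sham samples. Timp3 rose from day 1 to day 7 by 1.73 on the log2 scale (SE 0.33, 3.31-fold, adjusted p = 0.0319, edgeR), a call lost without sham replicate 2 or 3, or without day 1 or day 7 of either arm (1.32 to 2.27, lowest adjusted p = 0.053). Timp1 was 349, 448 and 453 CPM in sham and 374 to 694 CPM after LT, with a log2 fold change of 0.36 (SE 0.20, adjusted p = 0.325, edgeR). Timp2 was 98 to 144 CPM in sham and 55.6 to 81.9 CPM after LT, without overlap. It was not called by edgeR (p = 0.0238, adjusted p = 0.171, two-sided exact permutation test). Of the 7 members tested, 1 was called higher and 1 lower after LT, where 0.805% and 2.24% of all 10184 genes were. On day 7 against day 1, 1 was higher and 0 lower, against 2.1% and 1.69%. Between treat and ctrl edgeR called 0 members, against 0.00982% of genes higher and 0% lower, and DESeq2 called 2, against 0.452% of genes. An unadjusted edgeR p under 0.05 was found for 3 members and 8.64% of genes.

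BEC-like cells, the epithelium of the duct, had higher Mmp7 and Timp1 after LT. Mmp7 was 884, 853 and 725 CPM in sham, 781, 1479 and 2278 CPM on ctrl days 1, 3 and 7, and 1414, 1742 and 2401 CPM on treat days 1, 3 and 7. Levels were higher at each later day in both arms, and ctrl day 1 was the only LT sample within the sham range. The log2 fold change of LT over sham was 1.19 (SE 0.16, 2.28-fold, adjusted p = 0.0105, edgeR), lost without sham replicate 2 or sham replicate 3 (1.13 to 1.25, lowest adjusted p = 0.0656), and with no day term or with libraries as samples (adjusted p up to 0.0613). The rise from day 1 to day 7 was 0.88 on the log2 scale (SE 0.22, adjusted p = 0.0401, edgeR), and it kept its call only without sham replicate 1, being lost without any other sample (0.60 to 1.17, lowest adjusted p = 0.0591). It was also lost at Leiden resolution 2 (adjusted p = 0.109).

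The cluster make-up of BEC-like cells differed between the samples too. A cluster led by Clca5 and Sectm1b held 2445 cells on ctrl day 7 and 3928 on treat day 7 but 49 to 94 cells of each sham sample, and a cluster led by Akr1c15 and Scgb1c1 held 1261 and 1596 cells of sham replicates 2 and 3. Within the Clca5 and Sectm1b cluster, Mmp7 was 1530, 1217 and 796 CPM in sham, 1122, 2936 and 2453 CPM in ctrl and 1701, 1780 and 2519 CPM in treat. Mmp7 was itself among the leading genes of that cluster. In another cluster, led by Lypd8 and Wfdc21, Mmp7 was lower throughout, with 45.9 to 212 CPM in sham and 348 to 736 CPM after LT. The Akr1c15 and Scgb1c1 cluster held most of the 1662 and 1876 BEC-like cells of sham replicates 2 and 3. Its Mmp7 level is not given here, so no rise within clusters in general is read from these values. The part of cluster make-up in the Mmp7 result of the whole type was not tested.

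Timp1 in BEC-like cells was 397, 529 and 514 CPM in sham, 841, 754 and 524 CPM on ctrl days 1, 3 and 7, and 722, 663 and 507 CPM on treat days 1, 3 and 7. The day 7 samples fell within the sham range and the earlier days lay above it. Its log2 fold change of LT over sham was 0.67 (SE 0.17, 1.59-fold, adjusted p = 0.0438, edgeR), and from day 1 to day 7 it fell by 0.87 (SE 0.23, adjusted p = 0.0464). Both calls held only without sham replicate 1 and were lost without any other sample (0.63 to 0.77, lowest adjusted p = 0.0782, and −0.99 to −0.75, lowest adjusted p = 0.0655). Across other settings the LT call of Timp1 held in 5 of 9, being lost without TMM, with no day term, at the stricter doublet limit and at Leiden resolution 2 (adjusted p up to 0.172). Its day 7 call held in 4 of 8, being lost without TMM, at the mitochondrial limit of 10%, with free RNA subtracted and at Leiden resolution 2 (adjusted p up to 0.242). Timp3 was at most 7.65 CPM in BEC-like cells, and rose from day 1 to day 7 by 2.01 on the log2 scale (SE 0.46, adjusted p = 0.0329, edgeR), a call lost without sham replicate 2 or 3 or without day 1 or day 7 of either arm (1.53 to 2.52, lowest adjusted p = 0.0583), and at the mitochondrial limit of 10% or Leiden resolution 2 (adjusted p up to 0.118). Of the 7 members tested in BEC-like cells, 2 were called higher and 0 lower after LT, where 5.33% and 5.92% of all 13593 genes were. From day 1 to day 7, 2 were higher and 1 lower, against 6.55% and 7.79%. Between treat and ctrl edgeR called 0, against 0% of genes in either direction, and DESeq2 0, against 2.02%. Unadjusted edgeR p-values under 0.05 came from 2 members and 13.1% of genes.

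**Figure D3:**
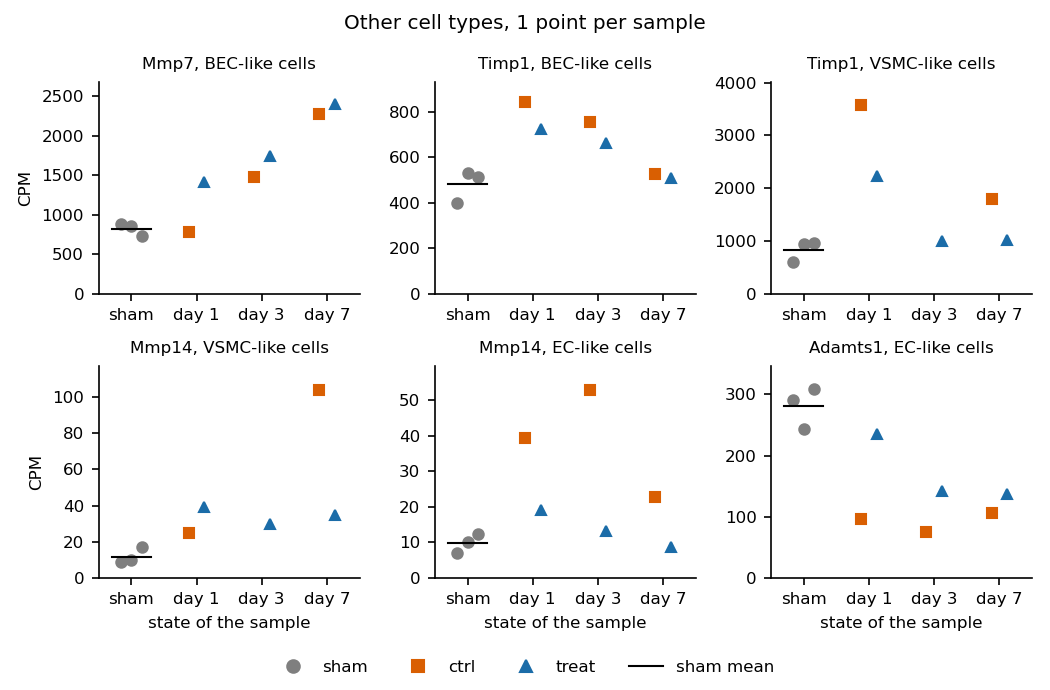
Levels in CPM per sample of Mmp7 and Timp1 in BEC-like cells, Timp1 and Mmp14 in VSMC-like cells, and Mmp14 and Adamts1 in EC-like cells, for 3 sham samples and days 1, 3 and 7 of ctrl and treat. Mmp7 was higher at each later day in both arms, and Adamts1 in EC-like cells was below the sham range of 244 to 310 CPM in all 6 LT samples.

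Macrophage-like cells gave no call for the 6 members tested. Timp1 was 51.8, 242 and 186 CPM in sham, 426, 273 and 204 CPM on ctrl days 1, 3 and 7, and 469, 242 and 125 CPM on treat days 1, 3 and 7, and the groups overlapped. Mmp14 was 0, 1.19 and 2.24 CPM in sham and 1.87 to 14.4 CPM after LT, with a log2 fold change of 2.59 (SE 0.76, adjusted p = 0.083, edgeR). After LT edgeR called 0 members, where 1.68% of all 10901 genes were called higher and 2.32% lower, and DESeq2 called 1, where it called 13.3% of genes. Unadjusted edgeR p-values under 0.05 after LT came from 3 members and 26.9% of genes. For day 7 against day 1 and for treat against ctrl edgeR called 0 members, against 0% of genes in either direction of both comparisons. DESeq2 also called 0 members in each, against 4.38% and 0.0183% of genes. An unadjusted edgeR p under 0.05 was found for 0 members and 15.7% of genes between the days, and for 1 member (Timp2, −0.94 on the log2 scale, adjusted p = 0.942) and 3.3% of genes between the arms.

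Summed over all cells, Timp2, Timp3 and Adamts1 were lower after LT. In these sums, fewer cells of a type and less RNA per cell cannot be told apart, and the fibroblast markers summed to 3520 to 33460 CPM in sham and 900 to 12323 CPM after LT. LEC markers summed to 776 to 3009 CPM in sham and 42.5 to 800 CPM after LT, VSMC markers to 615 to 3348 CPM and 293 to 697 CPM, and EC markers to 286 to 1936 CPM and 218 to 440 CPM. The dissociation response genes did not overlap, at 13958 to 16776 CPM in sham and 8503 to 10308 CPM after LT, and the part of any of these in the results was not tested. Timp2 was 939, 627 and 620 CPM in sham and 224 to 502 CPM after LT, and Timp3 41.1 to 65.3 CPM against 3.84 to 24 CPM, neither with overlap. Their log2 fold changes were −0.84 (SE 0.17, adjusted p = 0.0257, edgeR) and −1.65 (SE 0.28, adjusted p = 0.0179). Adamts1 was 79.9, 82.5 and 77.2 CPM in sham and 17.3 to 78.4 CPM after LT, with treat day 1 inside the sham range, and its log2 fold change was −1.07 (SE 0.24, adjusted p = 0.0331, edgeR). All these calls were lost without sham replicate 2, sham replicate 3, treat day 3 or treat day 7. Timp2 was also lost without ctrl day 1 or day 7 (−0.89 to −0.72, lowest adjusted p = 0.0566), Timp3 without ctrl day 3 (−1.77 to −1.40, 0.0535) and Adamts1 without ctrl day 3 or day 7 (−1.29 to −0.88, 0.0502). With no day term the Timp2 and Adamts1 calls were also lost (adjusted p = 0.0503 and 0.0715).

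Timp1 over all cells was 308, 1055 and 654 CPM in sham, 2535, 1192 and 482 CPM on ctrl days 1, 3 and 7, and 3701, 634 and 381 CPM on treat days 1, 3 and 7. The groups overlapped and the log2 fold change of 0.93 did not pass (SE 0.47, adjusted p = 0.198, edgeR). Of the 9 members, 0 were called higher and 3 lower after LT, where 9.2% and 8.53% of all 16408 genes were. From day 1 to day 7 edgeR called 0, against 2.21% of genes higher and 0.5% lower, and DESeq2 1, against 16.1% of genes. Unadjusted edgeR p-values under 0.05 came from 2 members and 21.8% of genes. Between treat and ctrl edgeR called 0, against 0% of genes in either direction, and DESeq2 0, against 0.347%, while 3 members and 3.82% of genes had an unadjusted edgeR p under 0.05. Across all types, the comparisons share the sham and day samples and are not independent of each other.

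**Figure D4:**
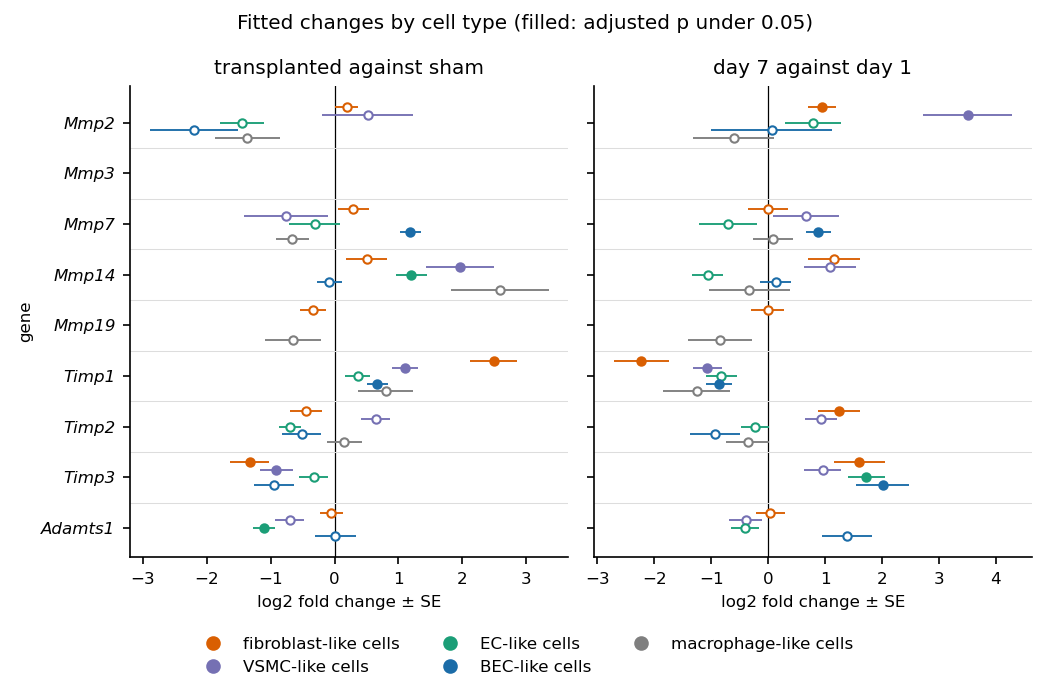
Log2 fold change with its SE for each gene tested in a type, except Mmp3, which is not drawn and whose calls are given in the text. The comparisons are LT against sham and day 7 against day 1, in fibroblast-like, VSMC-like, EC-like, BEC-like and macrophage-like cells. Filled points mark adjusted p under 0.05. Timp1 was called higher after LT in fibroblast-like, VSMC-like and BEC-like cells (2.49, 1.10 and 0.67), and Timp3 was called higher on day 7 than day 1 in fibroblast-like, EC-like and BEC-like cells (1.60, 1.73 and 2.01).

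The Timp1 difference between types within a sample, on the log2(CPM + 1) scale, is given as a description, since gene and type were picked after their values were seen. Fibroblast-like minus EC-like cells was 0.96 to 1.94 in sham and 2.40 to 5.09 after LT. Fibroblast-like minus BEC-like cells was 0.78 to 1.70 in sham and 2.20 to 4.63 after LT, and minus VSMC-like cells −0.13 to 0.88 and 0.93 to 2.54. These ranges did not overlap, while those of fibroblast-like minus macrophage-like cells did, at 2.25 to 4.06 in sham and 3.65 to 5.61 after LT.

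Single members were also tested by a two-sided exact permutation test of LT against sham on the log2(CPM + 1) scale, which cannot go below p = 0.0238 with 6 against 3 samples or 0.0357 with 5 against 3. None of the 54 tests passed after adjustment (smallest adjusted p = 0.171).

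Other genes of matrix proteolysis were taken from lists of 61 further metalloproteinases, inhibitors, ADAMTS proteases, activators and sheddases. In fibroblast-like cells 10 of the 45 tested were called higher and 7 lower after LT, with a median log2 fold change of 0.10 (−0.0038 over all genes). Beside these counts, the shares of all genes called higher and lower after LT were 7.64% and 7.99% in fibroblast-like, 2.95% and 3.84% in VSMC-like, 0.805% and 2.24% in EC-like, 5.33% and 5.92% in BEC-like and 1.68% and 2.32% in macrophage-like cells, and 9.2% and 8.53% over all cells. For day 7 against day 1 they were 14.4% and 14.8%, 3.84% and 0.958%, 2.1% and 1.69%, 6.55% and 7.79%, and 0% and 0% in the same types. The largest called rises after LT in fibroblast-like cells were Mmp9, or gelatinase B (3.84, SE 0.60), A2m, a broad protease trap (3.13, SE 0.24), and Tfpi2, a serine protease inhibitor (1.97, SE 0.32). The largest called falls in these cells were Klk1, a kallikrein (−3.94, SE 0.54), Adamts19 (−2.12, SE 0.37) and Mmp12 (−2.04, SE 0.57). Acinar markers in fibroblast-like cells summed to 46.2 to 607 CPM in sham and 2.6 to 22.2 CPM after LT, and their part in the Klk1 value was not tested. Day 7 against day 1 gave 13 higher and 2 lower, with a median of 0.56 (0.03 over all genes) and with Timp4, the remaining TIMP gene, at 4.69 (SE 0.73) and A2m at 4.08 (SE 0.31). In VSMC-like cells 4 of 31 were higher and 0 lower after LT (median 0.34), and 4 higher and 2 lower on day 7 against day 1. Those higher after LT included Mmp9 (3.60, SE 0.94) and Serping1, the C1 inhibitor (1.75, SE 0.26). Neutrophil markers in VSMC-like cells summed to 19.7 to 33.7 CPM in sham and 111 to 601 CPM after LT, and their part in the Mmp9 value was not tested. In EC-like cells 1 of 32 was higher, Serping1 (1.80, SE 0.32), and 2 were lower, Cst3 (−1.33, SE 0.26) and Adamts10 (−0.98, SE 0.19). EC-like cells had a median of −0.32 (−0.028 over all genes), and 2 higher and 0 lower on day 7 against day 1. In BEC-like cells 3 of 42 were higher and 12 lower after LT, with a median of −0.42 (−0.015 over all genes) and with Mmp9 at 2.39 (SE 0.52) and Reck, a membrane inhibitor of metalloproteinases, at −3.48 (SE 0.71). Also lower were Adamts2, which trims procollagen (−3.83, SE 0.77), and Mmp12, the macrophage elastase (−2.76, SE 0.53). In BEC-like cells neutrophil markers summed to 13.6 to 28.8 CPM in sham and 94.2 to 404 CPM after LT, and fibroblast markers to 53.6 to 911 CPM and 17.2 to 119 CPM, and their part in these values was not tested. In macrophage-like cells 1 of 28 was higher, Serping1 (2.10, SE 0.34), and 2 were lower, Klk1 (−4.29, SE 0.57) and Adamts4 (−2.52, SE 0.55). Acinar markers in macrophage-like cells summed to 92.3 to 999 CPM in sham and 1.53 to 44 CPM after LT, and their part in this Klk1 value was not tested. On day 7 against day 1, BEC-like cells gave 7 higher and 0 lower and macrophage-like cells 0 in either direction. Over all cells 3 of 55 were higher and 9 lower after LT, with a median of −0.34 (−0.063 over all genes) and with Mmp9 at 5.07 (SE 0.53) and Mmp8, the neutrophil collagenase, at 4.89 (SE 1.32). The lower genes included Adamts19 (−3.63, SE 0.89), the membrane protease Adam33 (−2.43, SE 0.46) and the membrane-type metalloproteinase Mmp16 (−2.37, SE 0.38). Neutrophil markers over all cells summed to 214 to 1442 CPM in sham and 2257 to 18716 CPM after LT, and their part in the Mmp8 and Mmp9 values was not tested. Between treat and ctrl edgeR called 0 genes of these lists in any type, and no other tool was counted for the lists.

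The genes whose mean levels over the 10 types were most like each member, among 5004 genes with at least 50 CPM in a type, were ranked by Pearson's r over the 10 types, which share libraries and depth. Mmp2 was most like Cilp (0.985), Nnmt (0.984) and Thbs2 (0.976), and Mmp14 most like Fblim1 (0.981). Mmp7 was most like Sftpd (0.982) and Tmprss2 (0.981). Timp1 was most like Kdelr2 (0.975), Timp2 most like Pttg1ip (0.961) and Timp3 most like Rhoj (0.991), Lats2 (0.987) and Adamts9 (0.983). Adamts1 was most like Cavin3 (0.986), Mmp19 most like Cygb (0.959) and Mmp3 most like Pcdh19 (0.985). The type means of Mmp3 were at most 0.87 on the log2(CPM + 1) scale, so its r rests on few UMIs, most of them from 1 library.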

How the data were processed

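Bile duct cells of 9 samples (20 libraries) were analysed. The files deposited by the authors are unfiltered matrices of whole UMI counts for each feature and droplet barcode; the submitters' processing notes list Cell Ranger 5.0.1 (the matrix headers name version 4) and Seurat 3.2.0; the genome build is not given in the sources used here. The libraries held 14398295 to 109245177 UMIs, which sets the counting error. A barcode was kept with over 400 and under 6000 genes, a mitochondrial share below 25% and a hemoglobin share below 3% (150379 barcodes), and the 10749 above the 92.5 percentile of a simulated-doublet score were removed. Cells were clustered without 75 genes of the family (2000 variable genes, 30 components, 20 neighbours, Leiden resolution 0.9) and named from marker lists. At most 0.938% of barcodes were shared between libraries. Counts were summed per sample and type and tested with edgeR 4.0.16 (TMM, filterByExpr, Benjamini-Hochberg adjustment, threshold 0.05) in R 4.3.3. Levels are UMIs of the gene relative to all UMIs of the type (CPM), on the log2 scale after adding 1. They lack the TMM scaling of the edgeR fold changes, so levels and fold changes can differ in size or sign. Exact tests used scipy 1.17.1.

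The members and gene lists were chosen with earlier results of these data known. The other pathway genes named were taken from those with the largest called changes of their comparison, at most 3 in each direction, and not all of these are given. Alternatives were DESeq2 1.42.0, scaling, filters, libraries as samples, no day term, doublet, mitochondrial and clustering settings, free RNA, and each sample left out. Simulated counts were used to test only LT against sham, over all cells and in fibroblast-like cells. True log2 changes of size 1 were called for 25.3% of genes over all cells and 80.5% in fibroblast-like cells. For size 2 it was 99.1% and 100%. The other fits and comparisons were not simulated. The labels do not say that samples or libraries came from separate rats, so p-values measure only the spread between these samples, which may be technical. Each arm had a single sample per day. The spread in the edgeR model therefore came from the sham samples and from arm differences that varied between days. Day 7 against day 1 and treat against ctrl were judged by this same spread, sham samples included. One treat day 3 library was not analysed here. Sequences and coordinates of the genes were not used here. A gene picked by the naming rule and a gene most like a member are not reported here.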

Additional observations from a re-analysis of the deposited data

Results flagged for a closer look

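The LT against sham difference of Timp1, on the log2(CPM + 1) scale, was compared between fibroblast-like cells and 4 other types. The excess in fibroblast-like cells was 1.22 over VSMC-like cells (5 LT against 3 sham samples, p = 0.0357, adjusted p = 0.0476, two-sided exact permutation test). It was 2.02 over EC-like cells and 1.84 over BEC-like cells (6 against 3 samples, p = 0.0238 and adjusted p = 0.0476 for each, exact). Over macrophage-like cells it was 1.32 and did not pass (p = 0.0714, adjusted p = 0.0714, exact). Timp1 and fibroblast-like cells were picked because their difference had been seen to be large, so these p-values, adjusted over the 4 tests alone, restate that choice and are no independent evidence. Every LT sample lay above every sham sample in the comparisons with VSMC-like, EC-like and BEC-like cells, and the ranges overlapped for macrophage-like cells.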

How the results depend on the processing

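Members called moved with the processing in the cases given here, among others. With DESeq2 the number was 1 for all cells day 7 against day 1, 0 for VSMC-like treat against ctrl, 4 for EC-like LT against sham, 2 for EC-like treat against ctrl and 1 for macrophage-like LT against sham. DESeq2 called 5.04% of all genes in EC-like LT against sham. It also gave 4 members for LT against sham over all cells (32.7% of genes) and 3 in BEC-like cells (17.8%). Day 7 against day 1 had 5 in fibroblast-like (32.8%), 2 in VSMC-like (2.52%) and 4 in BEC-like cells (21.4%). VSMC-like LT against sham stayed at 3, though Mmp14 was lost. With no filter on low counts the number was 4, 2 and 1 for the EC-like comparisons (LT against sham, day 7 against day 1, treat against ctrl). For macrophage-like LT against sham it was 1. With no day term it was 0 for LT against sham in fibroblast-like, VSMC-like and BEC-like cells, 1 in EC-like cells, 2 in place of 3 over all cells (Timp2 and Adamts1 lost, Mmp7 gained), and 0 for VSMC-like treat against ctrl. With each library as a sample it was 1 for all cells day 7 against day 1, 0 for VSMC-like LT against sham and treat against ctrl, 3 and 1 for EC-like day 7 against day 1 and treat against ctrl, and 1 for BEC-like LT against sham. With the doublet limit at the 85 percentile it was 1 and 0 for VSMC-like day 7 against day 1 and treat against ctrl. At a mitochondrial limit of 10% it was 1 for BEC-like day 7 against day 1, and at Leiden resolution 2 it was 1 and 0 for BEC-like LT against sham and day 7 against day 1 and 1 for macrophage-like LT against sham. One level also turned (Mmp3: level in VSMC-like against EC-like cells, mean log2 difference), from 0.28 to −0.066 with the doublet limit at the 85 percentile, and ran from −0.375 (without ctrl day 7) to 0.464 with a sample left out. Of the called members, fibroblast-like Timp1 after LT was lost only with no day term, and VSMC-like Timp1 with no day term or with libraries as samples. EC-like Adamts1 and all-cell Timp3 after LT held in all 9 alternatives other than leaving out a sample. Apart from DESeq2, no share of all genes called is given beside these member counts. The counts therefore do not show whether the members moved more than other genes did. The cause of these changes was not tested.

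Leaving out each sample in turn gave 0 to 4 (LT against sham) and 0 to 1 (day 7 against day 1) members over all cells, 1 to 3 and 0 to 4 in fibroblast-like, 1 to 3 and 0 to 5 in VSMC-like, 0 to 3 and 0 to 2 in EC-like, 0 to 3 and 0 to 5 in BEC-like, and 0 to 2 and 0 to 1 in macrophage-like cells. For treat against ctrl it gave 0 to 1 in VSMC-like cells and 0 elsewhere. The same fits called 1 to 4116 genes for LT against sham over all cells, and 309 to 2105 in fibroblast-like cells. VSMC-like, EC-like, BEC-like and macrophage-like cells had 215 to 655, 17 to 540, 90 to 2165 and 15 to 2366 calls. Day 7 against day 1 gave 0 to 1686 over all cells, 540 to 4377 in fibroblast-like and 47 to 886 in VSMC-like cells. It gave 36 to 955 in EC-like, 0 to 3743 in BEC-like and 0 to 519 in macrophage-like cells. Over all genes, LT against sham in fibroblast-like cells gave 1887 calls and 220 with no day term. Day 7 against day 1 over all cells gave 445 calls, 2638 with DESeq2 and 4214 with libraries as samples. For LT against sham, DESeq2 gave 5366 calls in place of 2910 over all cells, 513 in place of 310 in EC-like, 2414 in place of 1529 in BEC-like and 1448 in place of 436 in macrophage-like cells. With no day term it was 259 in place of 596 in VSMC-like, 125 in EC-like, 374 in BEC-like and 118 in macrophage-like cells. For day 7 against day 1 in BEC-like cells, 1950 calls became 595 at the mitochondrial limit of 10%, 622 at Leiden resolution 2 and 3905 with libraries as samples. The day term matches the ctrl and treat samples of a day, so treat against ctrl was analysed within day, and sham samples have no partner.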
